A study of Mus musculus with 50 samples.

Results

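The Schlafen genes (Slfn) encode a family of growth-regulatory and antiviral proteins, many of them induced by interferon. The 6 family members described here were taken by symbol from the deposited gene tables: Slfn1, Slfn2, Slfn4, Slfn5, Slfn8 and Slfn9, out of 55416 genes listed. The series holds 50 RNA-seq libraries of RAW264.7, a mouse macrophage line, edited here by CRISPR. The control cells carried an empty vector sgRNA, and the edited lines were an SGK1 knockout, an SGK3 knockout and a double knockout of both kinases. SGK1 and SGK3 are serine/threonine kinases that act downstream of PI3K. Cells were untreated ("at rest") or given DMXAA, which activates mouse STING, at 10 µg/mL for 2 h, and 1 group of control cells received 500 nM Sanofi-14h, an SGK inhibitor, for 2 h before DMXAA.

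The labels divide the libraries into batches b1, b2 and b3. In b1 there were 3 untreated and 5 stimulated libraries of control cells and 5 more that had inhibitor before DMXAA. That batch also had 3 untreated and 5 stimulated libraries of the SGK3 knockout and 5 stimulated ones of the double knockout. In b2 the untreated libraries numbered 3 for each of control, SGK1 knockout and double knockout, and the stimulated ones 4, 4 and 3 in that order. All cells share the RAW264.7 background. The labels do not say whether a line was 1 clone, whether replicates were separate cultures, or which libraries received the DMSO vehicle. The p-values therefore measure only the spread between these samples, which may be technical. The 46 libraries of b1 and b2 shared an estimate of that spread for each gene, so p-values in either batch also depend on the spread in the other.

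Schlafen proteins share an N-terminal domain with homology to divergent AAA ATPases, and the family is sorted by length. Slfn1 and Slfn2 are short, Slfn4 is intermediate, and Slfn5, Slfn8 and Slfn9 are long forms with a C-terminal helicase-like domain. Slfn2 binds transfer RNAs and protects them from cleavage, and its loss breaks the quiescence of T cells and monocytes. Slfn4 is a myeloid gene induced by interferon and by Toll-like receptor ligands. Interferon acts on such genes through factors that bind the interferon-stimulated response element (ISRE) in their promoters, IRF9 and IRF7 among them. STING signalling drives transcription of interferon-β through IRF3.

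All 6 members lie within 239 kb of mouse chromosome 11 (GRCm39, 82842175 to 83081042). From one end they are Slfn5 (ENSMUSG00000054404.14, 82842175 to 82855666, plus strand), Slfn9 (ENSMUSG00000069793.13, 82869216 to 82882656, minus strand) and Slfn8 (ENSMUSG00000035208.17, 82892984 to 82911636, minus strand). Then follow Slfn2 (ENSMUSG00000072620.4, 82955938 to 82961504, plus strand), Slfn1 (ENSMUSG00000078763.3, 83007675 to 83013496, plus strand) and Slfn4 (ENSMUSG00000000204.17, 83066012 to 83081042, plus strand). The files annotate each as protein coding.

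The 3 long forms are the members whose upstream sequence holds an ISRE-like motif, and their promoters are shown so that these copies can be compared. The motif searched was a pair of GAAA half-sites with any 2 bases between them, or TTTC and TTTC so spaced on the other strand, in the 250 bases before each RefSeq start (GRCm38.p6). It was found in 3 of the 6 members and in 2.98% of 32851 promoters. The stretches below are printed 5′ to 3′ on the strand of the gene, with the match in capitals.
Slfn5 (chr11:82951887-82952006, plus strand): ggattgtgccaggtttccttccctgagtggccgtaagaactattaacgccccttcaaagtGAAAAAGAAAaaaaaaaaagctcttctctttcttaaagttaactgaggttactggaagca
Slfn9 (chr11:82991831-82991950, minus strand): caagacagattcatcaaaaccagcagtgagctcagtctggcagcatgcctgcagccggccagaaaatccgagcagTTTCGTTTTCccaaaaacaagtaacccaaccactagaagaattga
Slfn8 (chr11:83020811-83020930, minus strand): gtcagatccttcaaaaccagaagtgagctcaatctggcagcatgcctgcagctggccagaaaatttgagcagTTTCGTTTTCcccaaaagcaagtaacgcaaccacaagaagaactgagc

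The match begins 155 bases before the start in Slfn5, 45 before it in Slfn9 and 48 before it in Slfn8. The upstream windows of Slfn8 and Slfn9 are 80.2% identical over 262 aligned columns and carry the same 10 matched letters, whereas no other pair of members exceeded 53.1%. These letters are not in the windows of Slfn1, Slfn2 and Slfn4. The letters of a GAS element (TTCNNNGAA), a kB site (GGG and TTTCC with any 2 bases between) and a FOXO site (GTAAACA) were in 0 of 6 windows, against 7.02%, 1.41% and 3.17% of all promoters, and the PU.1 letters GAGGAA were in that of Slfn9 alone, against 23.3%. Both strands were searched, and no ISRE match overlapped a match of another motif. A match is a description of the sequence and does not show binding.

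Depth was 57859509 to 101068327 counts per library in b1 and 63461414 to 112007140 in b2. Of the 8 macrophage markers, 7 had a median above 1 TPM (a level scaled for transcript length and depth), and Mrc1 was at 0.0356. Of the markers listed for other cell types, those of NK cells, neutrophils, fibroblasts and epithelium all had a median of 0. So had the T cell markers Cd3e, Cd3d, Cd4 and Cd8a, the B cell markers Ms4a1 and Pax5 and the dendritic cell marker Flt3. Other markers of these 3 types were not at 0: Lck (T cell) had a median of 2.43 TPM, Cd79a (B cell) 0.219, and Siglech, Zbtb46 and Xcr1 (dendritic cell) 0.729, 0.255 and 0.106. The part of such cells in the results was not tested. In bulk RNA, fewer expressing cells and less RNA per cell cannot be told apart. Sgk1 stood at 50.5 ± 3.18 CPM (counts scaled for depth and composition, SD, n = 5) in b1 control cells with DMXAA and 4.78 ± 1.11 (n = 5) in the double knockout, and in b2 at 35.1 ± 6.52 (n = 4) in control cells and 4.25 ± 2.33 (n = 4) in the SGK1 knockout. It was also lower in cells with SGK1 unedited, at 21.6 ± 2.22 in the SGK3 knockout (n = 5) and 11.5 ± 1.98 with inhibitor (n = 5), so its RNA level alone does not check the SGK1 edit. Sgk3 RNA was 94.3 ± 0.635 CPM in control cells (n = 3) and 89.1 ± 1.28 in the SGK3 knockout (n = 3) at rest, a difference that did not pass the test (adjusted p = 0.894), so the RNA does not check the SGK3 edit either. Among b2 libraries, 6 showed an upward length trend: relative to the batch, log2 CPM went up by over 0.1 for each doubling of transcript length. For the SGK1 knockout these were E (0.24) and F (0.35) at rest and P (0.20) and R (0.12) stimulated, and for the double knockout H (0.10) at rest and X (0.23) stimulated. Another 6 went down by over 0.1: control libraries B at rest and K, L and N stimulated, and double knockout libraries I at rest and T stimulated. The trend thus ran partly with the line, since 4 of the 7 control libraries were among the downward 6 and 4 of the 7 SGK1 knockout libraries among the upward 6. Calls on b2 that changed without the upward 6, or without all 12, are given with the value. Without all 12, a setting chosen after seeing the data, 4 groups of b2 kept 1 library each, which is then assumed to vary like the other groups.

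By length-scaled level, Slfn2 was the most abundant member in every group. In control cells at rest of b1 it stood at 79.8 ± 10.5 TPM (SD, n = 3), followed by Slfn4 at 29.4 ± 11.7, Slfn9 at 13.9 ± 0.739, Slfn5 at 9.38 ± 2.17 and Slfn8 at 8.78 ± 0.414. The last 2 did not differ beyond their spread. In b2 the control cells at rest had 138 ± 8.38 TPM of Slfn2 (n = 3), then 26.3 ± 8.19 of Slfn9, 19.2 ± 4.25 of Slfn8, 18.1 ± 1.80 of Slfn4 and 16.0 ± 1.58 of Slfn5, and here the ranges of the last 4 neighbours overlapped in turn. Slfn1 had a count in 5 of 50 libraries, at most 18, and was too low to be tested. The remaining 5 members were tested among 18315 genes. A gene was called when its Benjamini-Hochberg adjusted p was under 0.05 in the quasi-likelihood F test of edgeR, levels below are CPM scaled for library composition, and fold changes are log2 ± SE. Over all tested genes the median log2 fold change lay between -0.03 and 0.01 in every comparison below. Statements that groups did not overlap describe the genes named. The share of all genes so separated was not counted.

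**Figure D1:**
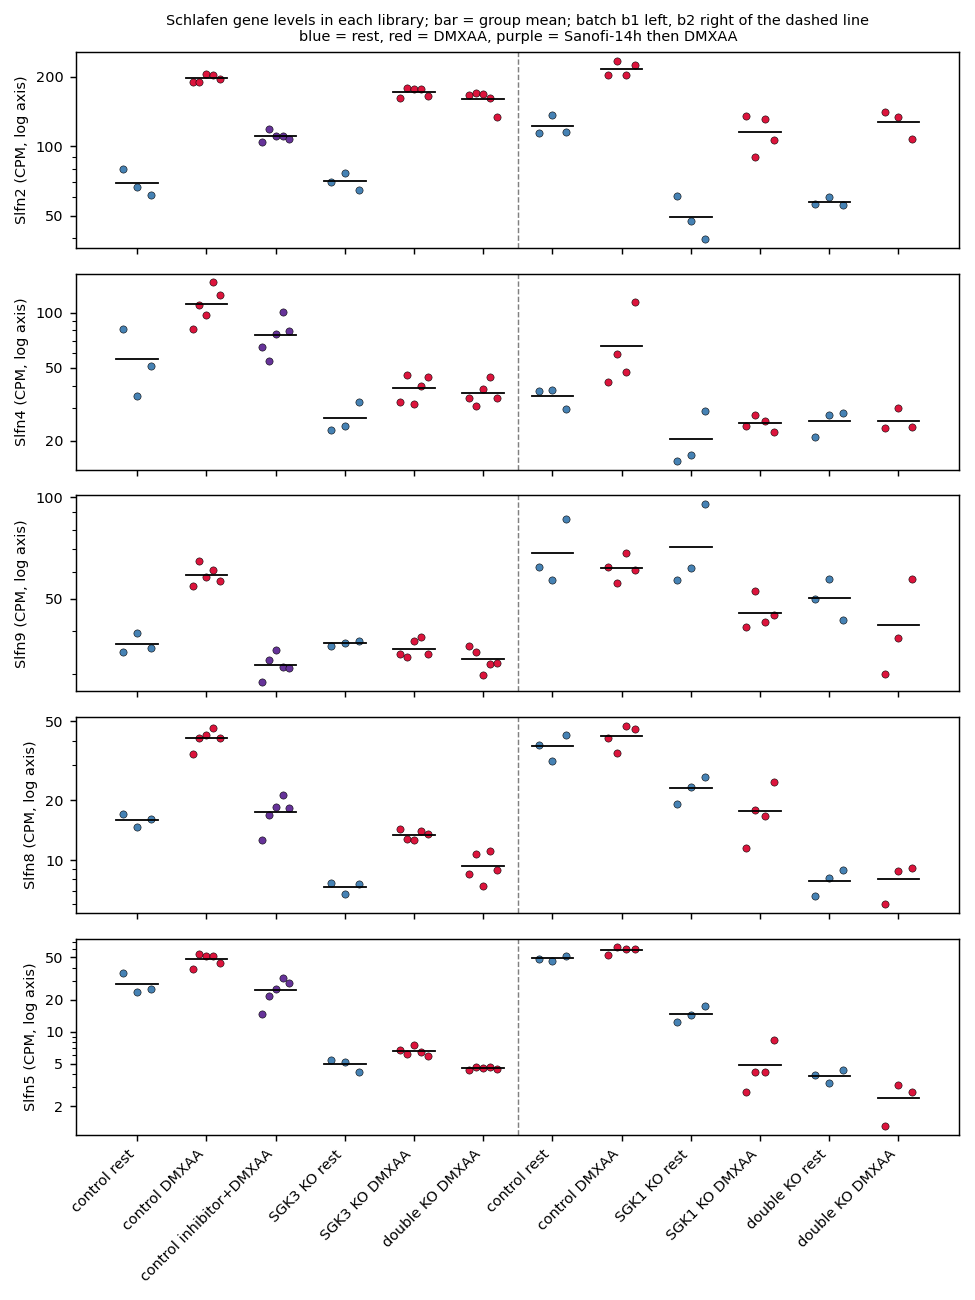
Level of each tested member in each of the 46 libraries of b1 and b2 (CPM, log axis), 1 panel per gene, with groups along the horizontal axis. Points are libraries and bars are group means. The lowest control library has 14.7 CPM of Slfn5 and the highest library of the SGK3 knockout or the double knockout has 7.43, whereas Slfn2 rises from rest to DMXAA in every line.

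All 5 tested members rose with DMXAA in the control cells of b1. Over the table, 21.1% of tested genes were called there, 10.8% of them upward. Slfn2, the tRNA-binding short form, was at 79.5, 66.4 and 61.3 CPM in the 3 rest libraries and at 189, 189, 206, 204 and 196 in the 5 DMXAA libraries, so the groups were far apart. Its log2 fold change was 1.51 ± 0.11 (adjusted p = 2.57e-14), or 2.85-fold. Slfn8, a long form, went from 17.0, 14.6 and 16.1 CPM to 34.3, 41.0, 42.7, 46.2 and 41.4 without overlap, a change of 1.37 ± 0.17 (adjusted p = 2.15e-08).

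The other 3 members rose less. Slfn9 was at 34.8, 39.6 and 35.7 CPM at rest and at 54.4, 64.7, 57.9, 60.9 and 56.2 with DMXAA, again with no overlap (0.68 ± 0.14, adjusted p = 0.000277). Slfn5 was at 35.4, 23.4 and 25.2 CPM at rest and at 39.1, 54.0, 51.7, 51.7 and 44.6 with DMXAA (0.78 ± 0.22, adjusted p = 0.0081). Slfn4, the myeloid intermediate form, spread most: 81.2, 35.1 and 51.3 CPM at rest against 81.1, 109, 97.2, 146 and 124 with DMXAA, so that rest library 1 reached the lowest stimulated library (1.00 ± 0.26, adjusted p = 0.00459). The calls of Slfn4 and Slfn5 rested on single rest libraries. Without rest library 2 the adjusted p was 0.0801 for Slfn4 (log2 0.74) and 0.0803 for Slfn5 (0.66), and without rest library 3 it was 0.0642 for Slfn5 (0.70). Fitted with the 2 groups alone, Slfn4 had an adjusted p of 0.0555.

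In the control cells of b2 the same stimulation gave 2 calls among the 5 members, both upward, while 7.80% of tested genes were called and 4.74% upward. Slfn2 rose from 114, 136 and 116 CPM to 203, 234, 202 and 225 without overlap (0.82 ± 0.11, adjusted p = 7.45e-07). Slfn4 was at 37.4, 37.7 and 29.8 CPM at rest and at 41.6, 59.3, 47.7 and 115 with DMXAA, where library N stood far above the other 3 (0.91 ± 0.27, adjusted p = 0.031). Without library N the Slfn4 change was 0.50 (adjusted p = 0.285), and it also missed the threshold without rest library A (0.97, adjusted p = 0.0785), B (0.97, 0.0685) or C (0.81, 0.157), with no filter on low counts (0.0533), on the TPM scale (0.0863), with the 2 groups alone (0.221) and without all 12 length-trend libraries (0.51, 0.554). Slfn8 (0.18 ± 0.17, adjusted p = 0.684), Slfn9 (-0.15 ± 0.15, 0.694) and Slfn5 (0.25 ± 0.23, 0.649) were not called.

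The difference between the 2 batches' responses was itself tested, with 3.21% of genes called, 1.81% of them toward b1. It passed for Slfn8 (1.19 ± 0.24 larger in b1, adjusted p = 0.00116), Slfn2 (0.69 ± 0.16, adjusted p = 0.00552) and Slfn9 (0.83 ± 0.20, adjusted p = 0.0112), though for Slfn9 not without b2 rest library C (0.61, adjusted p = 0.107) and not on the TPM scale (0.77, 0.153). Control cells at rest in b2 already had 37.4 ± 5.70 CPM of Slfn8 (n = 3) against 15.9 ± 1.20 in b1 (n = 3), and 68.3 ± 15.7 of Slfn9 against 36.7 ± 2.53. Resting levels were not tested across batches, where batch and any other difference cannot be told apart.

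**Figure D2:**
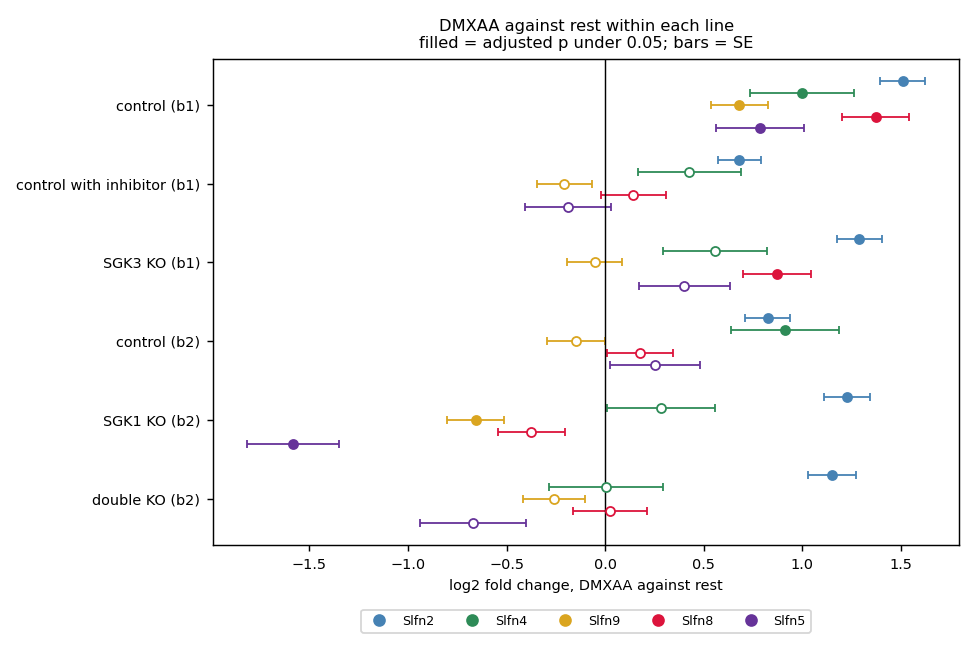
Log2 fold change of each tested member from rest to DMXAA within each line and batch, with SE bars; filled points have an adjusted p under 0.05. Slfn2 is filled and positive in all 6 rows, and Slfn5 lies at -1.58 in the SGK1 knockout.

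Slfn2 was the member called upward with DMXAA in every line and with the inhibitor. In the SGK3 knockout it went from 70.1, 76.6 and 64.4 CPM to 161, 179, 177, 178 and 165 (1.29 ± 0.11, adjusted p = 3.41e-12). In the SGK1 knockout it went from 61.0, 47.6 and 39.6 CPM to 135, 90.1, 131 and 107 (1.23 ± 0.12, adjusted p = 4.21e-11), and in the double knockout of b2 from 56.4, 60.5 and 55.5 to 141, 134 and 107 (1.15 ± 0.12, adjusted p = 1.21e-09). The stimulated libraries lay above all rest libraries of the same line in each case. Against the control response, the Slfn2 response missed the threshold of a difference in the SGK3 knockout (-0.22 ± 0.15, adjusted p = 1), the SGK1 knockout (0.40 ± 0.16, 0.159) or the double knockout (0.32 ± 0.16, 0.331). In the SGK1 knockout this difference did pass without rest library D (0.59, adjusted p = 0.016) or DMXAA library P (0.51, 0.0459), and in the double knockout without the upward 6 length-trend libraries (0.48, 0.0192).

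In the SGK3 knockout, where 16.5% of genes were called and 8.58% upward, 2 of 5 members rose: Slfn2, and Slfn8 from 7.71, 6.78 and 7.58 CPM to 14.4, 12.7, 12.6, 14 and 13.5 (0.87 ± 0.17, adjusted p = 0.000163). Slfn9 was at 36.2, 36.9 and 37.6 CPM at rest there and at 34.2, 33.5, 37.5, 38.5 and 34.2 with DMXAA (-0.05 ± 0.14, adjusted p = 0.923). Its response was 0.73 ± 0.20 below that of control cells on the log2 scale, which did not pass (adjusted p = 0.139). That test called 0 of 5 members in edgeR, against 0.191% of all genes. It called 1 in DESeq2, and 2 had an unadjusted p under 0.05, but the share of all genes is not given for these. Slfn9 passed with DESeq2's Wald test (adjusted p = 0.0497), with the 4 groups alone (0.000133) and without the upward length-trend libraries of b2 (0.00207). With the groups alone, Slfn8 passed in that test too (-0.49, adjusted p = 0.0445), and the DMXAA responses of Slfn5 (0.41, 0.0226) and Slfn4 (0.56, 0.0309) were called in the SGK3 knockout. In the fit of all groups that of Slfn5 was 0.40 ± 0.23 (adjusted p = 0.296).

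Slfn5 fell with DMXAA in the SGK1 knockout. It stood at 12.4, 14.2 and 17.3 CPM in the 3 rest libraries and at 2.73, 4.20, 4.16 and 8.30 in the 4 DMXAA libraries, with no overlap. The change was -1.58 ± 0.23 (adjusted p = 1.84e-06), in a comparison that called 24.1% of genes, 12.5% upward and 11.6% downward. Control cells of the batch had 48.7, 46.5 and 51.9 CPM at rest and 52.2, 61.9, 60.3 and 59.4 with DMXAA, and the difference between the 2 responses passed the test (-1.84 ± 0.33, adjusted p = 0.000614, with 2.83% of genes called and 1.09% lower). Slfn9 was called lower as well (-0.66 ± 0.14, adjusted p = 0.000727), from 56.9, 61.8 and 95.3 CPM to 41.1, 52.5, 42.5 and 44.8, but not without rest library F (-0.38, adjusted p = 0.0747), which has the steepest length trend, without the upward 6 (-0.45, 0.058) or with the 2 groups alone (0.0733). Without all 12 it was -0.43 (adjusted p = 0.0212). The Slfn9 response did not differ from that of control cells past the threshold (-0.51 ± 0.21, adjusted p = 0.171), but did without control rest library C (-0.71, 0.0479) or SGK1 knockout rest library D (-0.64, 0.0488). Slfn8 (-0.37 ± 0.17, adjusted p = 0.102) was called lower without rest library D (-0.48, 0.0499) or DMXAA library R (-0.58, 0.00933). Slfn4 (0.28 ± 0.27, 0.49) was not called.

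In the double knockout of b2, 14% of genes were called with DMXAA and 7.44% upward, and Slfn2 was the 1 member among them. Slfn5 was at 3.93, 3.27 and 4.33 CPM at rest and at 1.31, 3.16 and 2.71 with DMXAA, so every stimulated library lay below every rest library (-0.67 ± 0.27, adjusted p = 0.0941). Without DMXAA library U the fall passed the test (-0.92, adjusted p = 0.0415). The b3 reruns V and W of the stimulated double knockout, in no main comparison, had 3.75 and 3.55 CPM of Slfn5, inside the rest range. Slfn9 (-0.26 ± 0.16, adjusted p = 0.294) passed without library X (-0.55, 0.00988) and without the upward 6 length-trend libraries (-0.44, 0.0167). Of the responses compared with control cells, 0 of 5 members passed in edgeR, against 2.97% of all genes (Slfn5 -0.93 ± 0.35, adjusted p = 0.16). In DESeq2 0 passed, and 2 had an unadjusted p under 0.05, but the share of all genes is not given for these.

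The SGK3 knockout had less Slfn5 than control cells at rest and with DMXAA. At rest, 3 of 5 members were called lower and 0 higher, where 4.82% of all genes were called and 2.03% were lower. Slfn5 was at 5.44, 5.19 and 4.22 CPM against 35.4, 23.4 and 25.2 in control cells (-2.50 ± 0.26, adjusted p = 3.15e-09). Slfn8 was at 7.71, 6.78 and 7.58 CPM against 17.0, 14.6 and 16.1 (-1.11 ± 0.19, adjusted p = 4.22e-05). Neither gene's groups overlapped. Slfn4 was at 23.0, 24.1 and 32.4 CPM against 81.2, 35.1 and 51.3 (-1.08 ± 0.29, adjusted p = 0.0194), and this call ended without control rest library 1 (-0.71, adjusted p = 0.36), without SGK3 knockout rest library 1 (-0.99, 0.13) or 2 (-1.01, 0.112), and with the 2 groups alone (0.167). Slfn2 (0.03 ± 0.12) and Slfn9 (0.01 ± 0.16) were near 0, each with an adjusted p of 1 and a 95% interval of -0.21 to 0.26 and -0.30 to 0.31.

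With DMXAA, 4 of 5 members were lower in the SGK3 knockout, against 10.8% of genes called and 4.70% lower. Slfn5 was at 6.77, 6.17, 7.43, 6.48 and 5.87 CPM against 39.1, 54.0, 51.7, 51.7 and 44.6 (-2.88 ± 0.20, adjusted p = 2.82e-14), and Slfn8 at 14.4, 12.7, 12.6, 14 and 13.5 against 34.3, 41.0, 42.7, 46.2 and 41.4 (-1.61 ± 0.14, adjusted p = 7.02e-12). Slfn4 was at 32.5, 45.7, 31.9, 40.0 and 44.7 CPM, all below the lowest control library at 81.1 (-1.52 ± 0.23, adjusted p = 4.18e-06). Slfn9 was lower by a smaller margin (-0.73 ± 0.12, adjusted p = 1.93e-05). Slfn2 was at 161, 179, 177, 178 and 165 CPM against 189 to 206 (-0.19 ± 0.09, adjusted p = 0.219). The groups of Slfn2 did not overlap, and it passed with the 2 groups alone (0.00511), on the TPM scale (0.0429) and without the upward length-trend libraries of b2 (0.0311).

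In the double knockout of b1 with DMXAA all 5 members were lower than in control cells, against 13.4% of genes called and 6.21% lower. Slfn5 was at 4.41, 4.70, 4.53, 4.68 and 4.42 CPM, a fall to less than the lowest control library by a wide margin (-3.41 ± 0.21, adjusted p = 3.27e-16, 10.6-fold lower). Slfn8 was at 8.47, 10.7, 7.44, 11.2 and 8.96 CPM (-2.14 ± 0.15, adjusted p = 1.77e-15), Slfn4 at 34.3, 30.8, 38.1, 44.6 and 34.3 (-1.62 ± 0.23, 1.11e-06) and Slfn9 at 36.1, 34.8, 29.7, 32.0 and 32.3 (-0.83 ± 0.12, 1.23e-06). Slfn2 was at 167, 169.5, 168, 162 and 133 CPM (-0.30 ± 0.09, adjusted p = 0.0235). The Slfn2 call ended without double knockout library 5 (-0.24, adjusted p = 0.107) or control library 3 (-0.28, 0.0578) or 4 (-0.29, 0.0538).

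The double knockout was set beside the SGK3 knockout. As the labels do not say whether a line was 1 clone, loss of SGK1 cannot be told apart from other differences between the lines. With DMXAA in b1, 1 of 5 members was called, Slfn8 (-0.52 ± 0.14, adjusted p = 0.0366), against 2.16% of genes called and 1.41% lower. That call ended without any 1 of 7 of the 10 libraries compared, with adjusted p from 0.053 without SGK3 knockout library 2 to 0.16 without double knockout library 3, and on the TPM scale (0.18). Slfn5 was lower by 0.53 ± 0.20 on the log2 scale (adjusted p = 0.285), with a 95% interval of -0.92 to -0.13, and its 5 double knockout libraries lay below the 5 SGK3 knockout libraries. It passed with the 2 groups alone (-0.52, adjusted p = 0.0028). Slfn2, Slfn4 and Slfn9 differed by -0.10, -0.10 and -0.11, each with an adjusted p of 1.

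**Figure D3:**
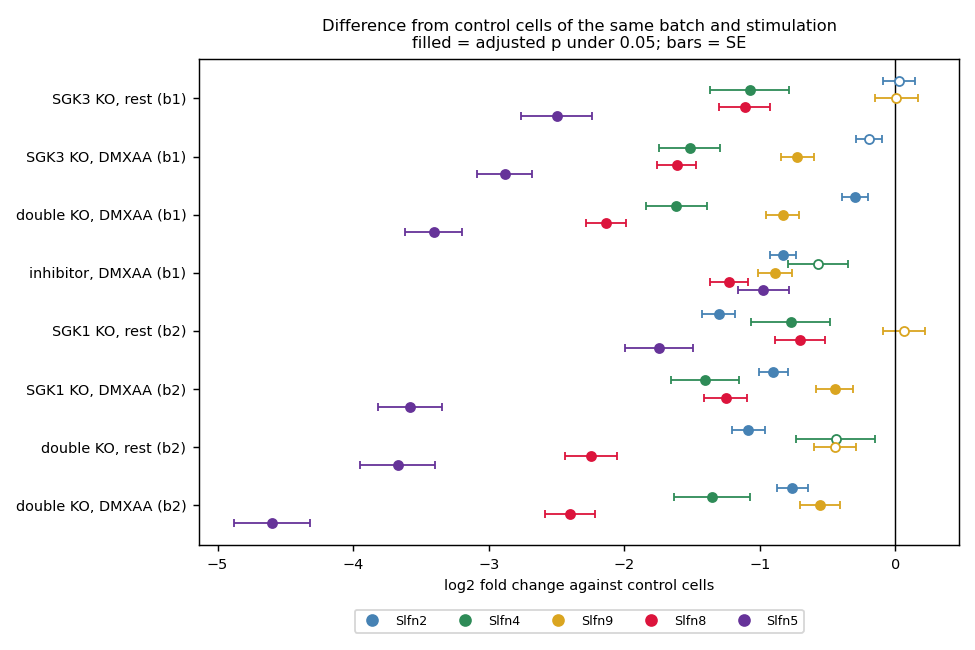
Log2 fold change of each tested member against the control cells of the same batch and stimulation, with SE bars; filled points have an adjusted p under 0.05. Slfn5 is the lowest point in 7 of the 8 rows, and Slfn8 at -1.23 is the lowest with the inhibitor.

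The median log2 difference of the 5 tested members from stimulated control cells was -1.52 in the SGK3 knockout, -1.62 in the double knockout of b1, -1.25 in the SGK1 knockout and -1.35 in the double knockout of b2. With Sanofi-14h before DMXAA, 4 of 5 members were lower than with DMXAA alone in control cells, against 8.51% of genes called and 4.81% lower. Slfn8 was at 12.7, 16.8, 18.6, 21.4 and 18.3 CPM with inhibitor against 34.3 to 46.2 without (-1.23 ± 0.14, adjusted p = 2.26e-08). Slfn5 was at 14.7, 21.6, 25.2, 32.2 and 28.9 CPM against 39.1 to 54.0 (-0.97 ± 0.19, adjusted p = 0.000394), and Slfn9 at 28.2, 32.9, 35.2, 31.3 and 31.2 against 54.4 to 64.7 (-0.89 ± 0.12, 9.08e-07). Slfn2 was at 104, 119, 111, 111 and 108 CPM against 189 to 206 (-0.83 ± 0.09, adjusted p = 1.25e-08). None of these 4 genes overlapped between the groups, but the share of all genes so separated was not counted. Slfn4 was at 64.9, 54.6, 76.7, 101 and 78.9 CPM, overlapping the control range from 81.1 (-0.57 ± 0.22, adjusted p = 0.116).

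Against control cells at rest, the inhibitor-treated and stimulated cells had 1 member called of 5, with 17.6% of genes called and 9.16% higher. Slfn2 was higher by 0.68 ± 0.11 (adjusted p = 7.35e-06). Slfn8 (0.14 ± 0.16, adjusted p = 0.688), Slfn5 (-0.19 ± 0.22, 0.684) and Slfn9 (-0.21 ± 0.14, 0.378) were not called, and neither was Slfn4 (0.43 ± 0.26, 0.313). The comparisons with and without inhibitor, with the SGK3 knockout and with the double knockout of b1 all use the same control libraries.

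In the SGK1 knockout at rest 4 of 5 members were called lower, against 25.8% of genes called and 14.5% lower. This background was not stable: 4732 genes were called, 665 without the upward 6 length-trend libraries, 669 without all 12 and 248 with the 2 groups alone. Slfn5 was at 12.4, 14.2 and 17.3 CPM against 48.7, 46.5 and 51.9 in control cells (-1.74 ± 0.25, adjusted p = 3.66e-06). Slfn2 was at 61.0, 47.6 and 39.6 CPM against 114, 136 and 116 (-1.30 ± 0.12, adjusted p = 9.2e-11). Both genes' groups were well separated. Slfn8 (-0.70 ± 0.18, adjusted p = 0.00434) lost its call on the TPM scale (0.109) and with the 2 groups alone (0.0872), and was -1.07 (0.00302) without all 12 length-trend libraries. Slfn4 was at 15.6, 16.8 and 28.9 CPM against 37.4, 37.7 and 29.8 (-0.77 ± 0.29, adjusted p = 0.0465), with library F close to control library C. It lost the call when control rest library A (-0.74, adjusted p = 0.108) or B (-0.73, 0.139) was left out, without SGK1 knockout rest library D (-0.63, 0.144) or E (-0.63, 0.181), without the upward 6 length-trend libraries (-1.17, 0.199) or all 12 (-1.11, 0.19), with DESeq2 size factors (0.0591), with no low-count filter (0.0733), on the TPM scale (0.0727) and with the 2 groups alone (0.12). Slfn9 was at 56.9, 61.8 and 95.3 CPM against 62.1, 56.8 and 86.2 (0.06 ± 0.16, adjusted p = 0.838).

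With DMXAA all 5 members were lower in the SGK1 knockout than in control cells, against 20.8% of genes called and 11.4% lower. Slfn5 was at 2.73, 4.20, 4.16 and 8.30 CPM against 52.2, 61.9, 60.3 and 59.4 (-3.58 ± 0.23, adjusted p = 3.25e-15, 12-fold lower). Slfn4 was at 24.1, 27.6, 25.6 and 22.3 CPM against 41.6, 59.3, 47.7 and 115 (-1.40 ± 0.25, adjusted p = 7.67e-05), and Slfn8 at 11.5, 17.9, 16.6 and 24.7 against 41.2, 34.8, 47.4 and 45.5 (-1.25 ± 0.16, 5.95e-08). Slfn2 was at 135, 90.1, 131 and 107 CPM against 203 to 234 (-0.90 ± 0.10, adjusted p = 7.53e-09). Slfn9 was lower by the smallest margin (-0.45 ± 0.14, adjusted p = 0.0149) and was not called on the TPM scale (-0.24, 0.403). Without all 12 length-trend libraries Slfn9 was at -0.69 (adjusted p = 0.00028), Slfn2 at -0.59 (0.000402), and Slfn4 lost its call (-0.93, 0.161). None of the 5 genes overlapped between the groups, but how many of all genes separate here was not counted.

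The double knockout of b2 at rest had 3 members called lower, against 6.26% of genes called and 3.51% lower. Slfn5 was at 3.93, 3.27 and 4.33 CPM against 48.7, 46.5 and 51.9 (-3.67 ± 0.27, adjusted p = 2.39e-13, 12.8-fold lower), Slfn8 at 6.57, 8.14 and 8.90 against 38.0, 31.4 and 42.7 (-2.25 ± 0.19, 2.97e-12), and Slfn2 at 56.4, 60.5 and 55.5 against 114, 136 and 116 (-1.09 ± 0.12, 5.84e-09). All 3 were separated from control cells, as was Slfn4, and the share of all genes so separated was not counted. Slfn4 (-0.44 ± 0.29, adjusted p = 0.493) and Slfn9 (-0.45 ± 0.16, 0.0834) were not called, although Slfn9 passed without control rest library B (-0.57, 0.0352) and without the upward 6 (-0.56, 0.00104) or all 12 length-trend libraries (-0.57, 0.00571).

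With DMXAA all 5 members were lower in the double knockout of b2, against 21.6% of genes called and 11.6% lower. Slfn5 was at 1.31, 3.16 and 2.71 CPM against 52.2 to 61.9 in control cells (-4.60 ± 0.28, adjusted p = 3.74e-16), a fall of 24.2-fold and the largest of any member and comparison here. Slfn8 was at 6.01, 8.84 and 9.12 CPM (-2.40 ± 0.19, adjusted p = 7.37e-14), Slfn4 at 23.6, 30.0 and 23.8 (-1.35 ± 0.28, 0.000332) and Slfn2 at 141, 134 and 107 (-0.76 ± 0.11, 1.41e-06). Slfn9 was at 29.9, 38.4 and 57.2 CPM against 62.2, 55.6, 68.2 and 60.8, with length-trend library X inside the control range (-0.56 ± 0.15, adjusted p = 0.0041). The Slfn9 call ended without double knockout library T (-0.38, adjusted p = 0.0598), on the TPM scale (0.16) and with the 2 groups alone (0.115), while without library X it was -0.86 (1.63e-05) and without the upward 6 it was -0.85 (2.04e-07). The Slfn4 call ended without all 12 length-trend libraries (-0.65, adjusted p = 0.426).

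The double knockout was also set beside the SGK1 knockout. At rest 3 of 5 members were lower (19.5% of genes called, 8.96% lower): Slfn5 by 1.93 ± 0.26 on the log2 scale (adjusted p = 2.26e-06), Slfn8 by 1.55 ± 0.19 (1.69e-07) and Slfn9 by 0.51 ± 0.16 (0.0186). The Slfn9 call ended without double knockout rest library G (adjusted p = 0.0625) or I (0.129), without SGK1 knockout rest library F (-0.25, 0.334), with the 2 groups alone (-0.52, 0.212) and without the upward 6 (-0.30, 0.325) or all 12 length-trend libraries (-0.19, 0.563). Slfn2 differed by 0.22 ± 0.12 (adjusted p = 0.201) and passed as higher without SGK1 knockout library D (0.40, 0.0137). With DMXAA 2 of 5 were lower (6.63% of genes called, 3.52% lower), Slfn8 by 1.15 ± 0.18 (adjusted p = 1.89e-05) and Slfn5 by 1.02 ± 0.25 (0.00926). The Slfn5 call ended without double knockout library T (-0.74, adjusted p = 0.0946), SGK1 knockout library R (-0.62, 0.0943), the upward 6 length-trend libraries (-0.61, 0.284) or all 12 (-0.13, 0.951), and the Slfn8 call without all 12 (-0.67, 0.0884). With the 2 groups alone neither was called (adjusted p = 0.648 for Slfn5 and 0.191 for Slfn8).

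Genes of interferon signalling were counted as a list of 14. With DMXAA 8 rose and 3 fell in control cells of b1, where 21.1% of all genes were called, but 2 rose, 2 fell and 10 were not called in those of b2 (7.80% of all genes). In the SGK3 knockout 4 were lower than in control cells and 10 not called at rest (4.82% of all genes), and 7 were lower and 1 higher with DMXAA (10.8%). With the inhibitor 8 were lower and 0 higher (8.51%), and in the double knockout of b2 at rest 7 were lower and 1 higher (6.26%). Irf7, an interferon-induced transcription factor, had the largest fall of the 14 in the double knockout of b2 at rest (-4.34 ± 0.27, adjusted p = 2.77e-15). It stood at 84.1 ± 1.74 CPM in control cells at rest of b2 (n = 3), 14.3 ± 3.86 in the SGK1 knockout (n = 3) and 4.15 ± 0.417 in the double knockout (n = 3). With DMXAA it was 111 ± 11.4 in control cells (n = 4), 3.80 ± 0.687 in the SGK1 knockout (n = 4) and 1.61 ± 0.568 in the double knockout (n = 3). In b2, Irf7 thus fell with DMXAA in the SGK1 knockout (-1.91 ± 0.23, adjusted p = 3.75e-08), as did Slfn5 and Irf9 (-0.70 ± 0.10, adjusted p = 1.41e-06). The Irf9 fall was not called with the b3 rerun added (-0.40, 0.113). Rerun S of that condition had 15.8 CPM of Irf7, inside the b2 rest range of 10.1 to 17.8. The Irf7 response was below that of control cells (-2.31, adjusted p = 2.21e-05), but missed the threshold with the rerun added (-1.60, 0.17). In the SGK3 knockout Irf7 rose with DMXAA, from 3.29 ± 0.273 CPM (n = 3) to 8.83 ± 0.966 (n = 5, 1.42 ± 0.24, adjusted p = 2.06e-05).

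Classical interferon-stimulated genes were counted for comparison. Of the 8 on the reference list (Ifit1, Ifit2, Ifit3, Isg15, Rsad2, Mx1, Oasl1, Cxcl10), 7 rose with DMXAA in the SGK1 knockout and 1 fell (24.1% of all genes called), with a median log2 change of 4.92. Ifnb1, which encodes interferon-β, rose in control cells of b1 (adjusted p = 3.34e-09). With DMXAA in b1, 8 of 8 were lower in the SGK3 knockout than in control cells (median -1.44, 10.8% of all genes called) and 8 of 8 with the inhibitor (median -1.83, 8.51%). At rest, 7 of the 8 were already lower in the SGK3 knockout than in control cells (median -2.92, 4.82%). Its response to DMXAA was called different from that of control cells for 0 of 8 (median 1.07, 0.191%). Of 6 tested genes of tRNA cleavage and modification, chosen because Slfn2 binds tRNAs, 0 rose and 1 fell with DMXAA in control cells of b1: the tRNA methyltransferase subunit Trmt61a, by 0.87 on the log2 scale. Since 21.1% of all genes were called there, this does not set the list apart.

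Across the 12 groups, the batch-centred log2 level of Slfn5 was most like those of Oas3 (Pearson r = 0.996), Lgals3bp (0.995) and Irf7 (0.990). Slfn8 was most like Gvin1 (0.966), Gvin2 (0.963) and Rnf213 (0.962), Slfn4 most like Apol9a (0.987), Rnf114 (0.977) and Sil1 (0.968), and Slfn2 most like Rnaset2a (0.971), Tmem230 (0.960) and Eif6 (0.959). For Slfn9 the leaders were the noncoding 9330175E14Rik (0.937), the pseudogene Gm16216 (0.936) and Atg9a (0.930). Levels of 9330175E14Rik and Gm16216 averaged 0.975 and 1.07 CPM, little above the 0.5 added before taking logs. Within the family, Slfn5 and Slfn8 had an r of 0.929 and Slfn2 and Slfn9 one of 0.101. Points share libraries within a group and a batch mean, and each is the best of many genes, so these values describe likeness only.

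**Figure D4:**
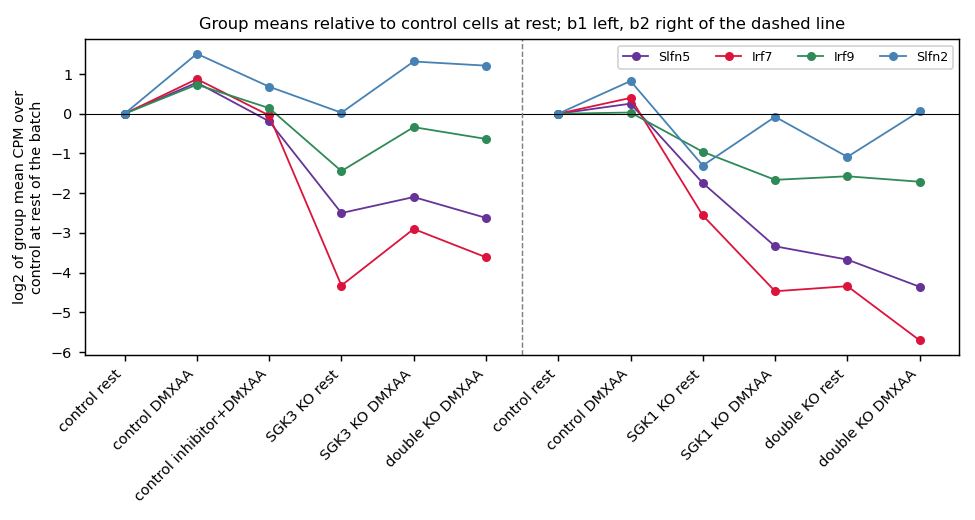
Group means of Slfn5, Slfn2 and the interferon-induced factors Irf7 and Irf9, as log2 of CPM over control cells at rest of the same batch, for the 12 groups of b1 and b2. Slfn5 and Irf7 lie below control cells at rest in every edited line. With DMXAA their means are above those at rest in the SGK3 knockout and below them in the SGK1 knockout and the double knockout of b2. The mean of Slfn2 is above that at rest in each line. The b3 reruns with DMXAA are not shown. In them Irf7 was at 15.8 CPM and Slfn5 at 8.76 in the SGK1 knockout, and at means of 7.82 and 3.65 in the double knockout.

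Other genes of the cluster were mostly not called. Slfn3, the intermediate form next to Slfn4, was called in 1 comparison, lower with the inhibitor (-0.60 ± 0.11, adjusted p = 0.000107), and it did not pass with DMXAA in control cells of b1 (0.32 ± 0.13, 0.0663). The pseudogene Slfn10-ps was called in 1, the DMXAA response of the double knockout (0.79 ± 0.22, adjusted p = 0.0126), but not without library X (0.42, 0.261). Of 18 tested non-Schlafen genes within 200 kb of the outermost members, 2 rose and 2 fell with DMXAA in control cells of b1, among them Gm11427 (0.92), Rffl (0.82), Lig3 (-0.39) and Rad51d (-0.38). This was near the share of all genes called there, 21.1%. Of the 18, 0 were higher and 1 was lower in the SGK3 knockout than in control cells with DMXAA (10.8% of all genes called), and 1 was higher and 1 lower in the double knockout of b2 (21.6%). Sequence shared between copies limits the separation of some members: of the 100-base windows in the longest annotated transcript, 3.90% of Slfn9 and 3.71% of Slfn8 also occurred in another gene of the family, mostly Slfn10-ps, whereas Slfn5 shared 0. How reads that fit 2 copies were counted is not given in the sources used here.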

How the data were processed

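Poly-A RNA was sequenced from 50 RAW264.7 libraries. Per the submitters' processing notes, the authors used the aligner STAR 2.7.9a, the genome GRCm39 and StringTie 2.2.0. They deposited expected (estimated) counts and TPM per gene for 55416 genes. How the counts were made and filtered is not given in the sources used here. The deposited expected counts are whole numbers and were used as they stand. Among values from 1 to 16, 17.5% were 4, so the count may not equal 1 read, and strand is not recorded.

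The 46 libraries of b1 and b2 were fitted together in edgeR 4.0.16 (R 4.3.3), with TMM scaling, 1 coefficient per group and robust quasi-likelihood F tests (two-sided). filterByExpr left 18315 genes, over which p-values were adjusted by Benjamini-Hochberg (threshold 0.05). There were 21 comparisons, each within a batch or between batch responses. The SE was taken from the fold change and F. The deposited TPM, scaled by the authors per transcript length and depth, served for levels between genes and for 1 alternative (limma 3.58.1 on log2 of TPM plus 0.1). Other alternatives were DESeq2 1.42.0, its size factors, no low-count filter, the groups compared alone, a replicate block, leaving out each library, leaving out libraries with an upward length trend and, chosen after seeing the data, those with a trend either way (from 10242 protein-coding genes with a mean above 1 CPM and a transcript length in GENCODE M21), and adding reruns of b3. The 4 libraries of b3 entered no main comparison: 3 are marked as reruns of treated knockouts, and the title and treatment field of the fourth disagree.

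Of 70 pairs of replicates, 0 were identical (Spearman rho 0.959 to 0.986 across genes). On simulated data, 100 genes were moved by 1 log2 unit and 100 by 0.5. The edgeR fit called 81 and 48 of them for the SGK3 knockout at rest (17731 genes), with 6 false calls. For the SGK1 knockout with DMXAA (17737 genes) it called 89 and 66, with 7 false calls. Apart from the moved genes, the simulated counts had no length trend and no batch or line difference. The false calls therefore do not give the error rate in b2.

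Promoter sequences are RefSeq's on GRCm38.p6. Named genes are the members, other Slfn symbols, fixed lists for interferon signalling, interferon-stimulated genes and tRNA cleavage, neighbours within 200 kb, and the 3 genes most like each member. The members and lists were chosen with earlier results of these data known. Some genes of these lists are not reported here by name.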

Additional observations from a re-analysis of the deposited data

Results flagged for a closer look

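Of 30 groups of 4 or 5 libraries checked, 1 had a library standing apart by its gap to the next value. This was Slfn2 in the double knockout of b1 with DMXAA, where replicate 5 had 133 CPM and the next library 162. Chance flags about 1 in 20 such groups.

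The response to DMXAA differed between lines or batches for 4 results. The Slfn5 response was lower by 1.84 on the log2 scale in the SGK1 knockout than in control cells (-1.84 ± 0.33, adjusted p = 0.000614). It rested on a fall in 4 of 4 stimulated SGK1 knockout libraries below all 3 rest libraries. In control cells, the response was larger in b1 than in b2 for Slfn8 (1.19), Slfn9 (0.83) and Slfn2 (0.69). The part of the batches' different resting levels in these differences was not tested.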

How the results depend on the processing

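Of 1710 log2 fold changes of members under the alternatives, 1618 kept their direction and side of the threshold, 63 lost the call, 29 gained one and 0 called values changed sign; 38 values that were not called changed sign. Where not shown by a value in the report, the cause of a change was not tested.

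The number of members called moved by over 1.5 times in these cases. In the DMXAA response of b2 control cells it was 1 of 5, not 2, with no low-count filter, on the TPM scale, with the groups alone and without all 12 length-trend libraries. In the test of the SGK3 knockout's response against that of control cells it was 1, not 0, with DESeq2's Wald test and without the upward length-trend libraries, and 2 with the groups alone. Between the double and the SGK3 knockout in b1 it was 0, not 1, on the TPM scale and 2 with the groups alone. In the SGK1 knockout at rest it was 2, not 4, on the TPM scale and with the groups alone. With the groups alone it was also 4, not 2, for the SGK3 knockout's response, 2, not 1, for inhibitor with DMXAA against rest, and 0, not 2, between the double and the SGK1 knockout with DMXAA. Without the upward length-trend libraries it was 2, not 1, for the double knockout's response, 1, not 0, for that response against control cells, and 1, not 2, between the double and the SGK1 knockout with DMXAA, where it was 0 without all 12.

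Leaving out each library in turn gave 3 to 5 members for the b1 control response, 1 to 2 for the b2 control response, 1 to 3 for the SGK1 knockout's response against control cells, 1 to 2 for the double knockout's response, 1 to 2 between the double and the SGK1 knockout with DMXAA, and 0 to 1 between the double and the SGK3 knockout.

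Replicate numbers of b1 showed no sign of pairing the samples: of 57 same-number pairs of libraries from different groups, 3 had deviations correlated over 0.1 (median r 0.0084). This cannot show that the samples were unpaired. With the replicate block, fitted on b1 alone, 1 member, not 0, was called in the SGK3 knockout's response against control cells (Slfn9, -0.72, adjusted p = 0.000243), and 2, not 1, for inhibitor with DMXAA against rest (Slfn9, -0.20, 0.038). Slfn4 was also called with inhibitor against none (-0.58, adjusted p = 0.0345) and Slfn2 in the SGK3 knockout with DMXAA (-0.19, 0.0279).

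The number of genes called over the table moved by over 1.5 times for every comparison but the b1 control response. With the groups alone it was 69, not 3573, between the double and the SGK1 knockout at rest, 57, not 1215, with DMXAA, 248, not 4732, for the SGK1 knockout at rest, 763, not 4410, for its response, 475, not 2555, for the double knockout's response, 1572, not 3815, and 1907, not 3961, for the SGK1 and double knockouts of b2 with DMXAA, 535, not 1147, for the double knockout at rest, and 80, not 519, for the SGK1 knockout's response against control cells. For the double knockout's response against control cells it was 40, not 544, with b3 reruns added. In b1 it rose, at most to 2359 from 883 for the SGK3 knockout at rest with the groups alone, and, with the replicate block, to 3865 from 1982 for the SGK3 knockout with DMXAA, 180 from 35 for its response against control cells, 4415 from 2446 for the double knockout, 853 from 396 between double and SGK3 knockout, 3524 from 1558 for the inhibitor and 5223 from 3231 for inhibitor with DMXAA against rest, and with the groups alone to 5339 from 3029 for the SGK3 knockout's response. Without the upward length-trend libraries it was 2357, not 1428, for the b2 control response and 1217, not 588, for the difference between batches.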

Other observations

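The 4 libraries of b3 stood in no comparison of the report. Library J, a control library whose title gives no treatment and whose treatment field gives DMXAA, had 202 CPM of Slfn2, 83.5 of Slfn4, 50.9 of Slfn5, 40.5 of Slfn8 and 55.0 of Slfn9. Control cells of b2 had 114 to 136 CPM of Slfn2 at rest and 202.5 to 234 with DMXAA. Library J, at 201.6, was just below the latter range. Its Slfn5 lay inside their rest range (46.5 to 51.9) and below their DMXAA range (52.2 to 61.9). Its Slfn4 lay inside their DMXAA range (41.6 to 115) and above their rest range. For Slfn8 it lay inside both ranges, and for Slfn9 below both.

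The SGK1 knockout rerun S with DMXAA had 130 CPM of Slfn2, 41.5 of Slfn4, 8.76 of Slfn5, 18.2 of Slfn8 and 37.3 of Slfn9. Its Slfn5 lay above the 4 SGK1 knockout libraries with DMXAA of b2 (2.73 to 8.30) and below the 3 at rest (12.4 to 17.3). The double knockout reruns V and W had 127 and 153 CPM of Slfn2, 29.3 and 31.1 of Slfn4, 3.75 and 3.55 of Slfn5, 13.0 and 7.81 of Slfn8, and 37.3 and 30.6 of Slfn9. Their Slfn5 lay inside the range of the b2 double knockout at rest (3.27 to 4.33). For Irf7 the 2 double knockout reruns had 7.82 ± 0.207 CPM (SD, n = 2). In b2 the double knockout had 1.61 ± 0.568 with DMXAA (n = 3) and 4.15 ± 0.417 at rest (n = 3). With the reruns added, the Irf7 response of the double knockout was -0.0072 on the log2 scale, against -1.35 without them. The fall of Irf7 in b2 was thus not seen in the reruns. Rerun S had 15.8 CPM of Irf7, against 3.80 ± 0.687 with DMXAA (n = 4) and 14.3 ± 3.86 at rest (n = 3) in the SGK1 knockout of b2.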
